A study of Homo sapiens with 9 samples.

Results

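Complexes II to V of the mitochondrial respiratory chain, in so far as the nucleus encodes them, were followed in the suspension-grown human line HEK293 Freestyle, derived from embryonic kidney. The set holds the protein-coding genes whose symbol names a subunit or assembly factor of succinate dehydrogenase (SDHA to SDHD and SDHAF1 to SDHAF4), a UQCR gene, CYC1, CYCS, a nuclear cytochrome c oxidase subunit (COX4 to COX8) or an ATP5 gene. It came to 55 of 57766 genes: 7 of complex II, 11 of complex III with cytochrome c, 18 of complex IV and 19 of complex V. The choice used symbols and no measured value, but it was made with earlier results of these data known.

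Cultures stood at 1000000 cells/mL for no less than 18 h, were rinsed in phosphate-buffered saline, and then spent 36 h on plates at 4000000 cells/mL. The medium was untreated (full), depleted of Zn(II) (depleted), or depleted and then given Zn(II) back (repleted), with 3 libraries of polyadenylated RNA per group, 9 in all, from what the labels call biological triplicates. The labels name no genetic change. They also mention a wash with EDTA, a chelator of metal ions, and then PBS, in wording that does not settle whether it applied to the plate, to all media or to the repleted medium alone. The level of a gene is given as RPKM, reads per kilobase of gene and per 1000000 reads, and a change as a difference on the log2(RPKM + 1) scale. RPKM is a share of a library, so the number of cells and the RNA per cell cannot be told apart in it.

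The respiratory chain passes electrons from succinate, through complex II, and from other substrates to ubiquinone, on through complex III and cytochrome c to complex IV, which reduces oxygen. Complexes III and IV pump protons, and complex V, the ATP synthase, uses the resulting gradient to make ATP. Complexes III, IV and V join nuclear subunits to a few that mitochondria encode, while complex II is wholly nuclear. COX5B, a subunit of complex IV, binds a zinc ion, so the set holds a zinc protein of the inner membrane.

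Promoter sequences are shown first, because the members that rose and those that fell differed in how often a short motif occurred in them. That motif, the ETS core, was picked for this difference from several motifs searched. Another of them, the NRF1 element, occurred in 1 of 12 members that rose, 3 of 15 that fell and 5 of 8 that did not pass. RefSeq promoters on GRCh38.p14, reaching from 250 bases before to 50 after the gene's start, were matched by current symbol for 39 of 55 members, 35 of which were tested for expression. Those of the other 16, among them ATP5D, ATP5S and ATP5EP2, were not analysed here. The gap was uneven in depleted against full medium: promoters were matched for 12 of the 13 members that rose but for 15 of the 21 that fell. The motif shares below leave out the unmatched members. The ETS core CCGGAAG, the element to which GABP binds, was searched on both strands. It occurred in 10 of 12 members that rose in depleted against full medium (83.3%), in 4 of 15 that fell (26.7%) and in 1 of 8 that did not pass the test (12.5%). Over all tested genes with such a promoter the shares were 25.4% of 3504 that rose, 13.7% of 3683 that fell and 18.7% of 3707 others, and the motif occurred in 10.7% of all 27305 RefSeq promoters. The 10 stretches from members that rose come first, then the 4 from members that fell, each written 5′ to 3′ with the motif in capitals, its 10 neighbouring bases on either side, and the strand printed.

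SDHB (chr1:17054144-17054170, minus): acccgggaaaCCGGAAGccgcctccca
UQCR11 (chr19:1605543-1605569, plus): gcgcgcagacCCGGAAGccacttacag
UQCRH (chr1:46303642-46303668, minus): ggcgatctggCCGGAAGtgcggcacac
UQCRQ (chr5:132866578-132866604, plus): atggtatctcCCGGAAGttacctcacg
COX5B (chr2:97646047-97646073, plus): cagcttgttcCCGGAAGttttgctgct
COX6A1 (chr12:120438087-120438113, minus): tgccgcagcgCCGGAAGcggaagtgga
COX6B1 (chr19:35648301-35648327, minus): ctactaccagCCGGAAGctgagagagg
COX8A (chr11:63974592-63974618, minus): gctgcgctggCCGGAAGttctggagct
ATP5H (chr17:75047054-75047080, plus): agggctggttCCGGAAGtatcttcccg
ATP5J (chr21:25735068-25735094, minus): gccaggggacCCGGAAGcacttaccct
SDHAF2 (chr11:61430094-61430120, plus): ctaggagttcCCGGAAGtgcccgcgca
COX4I1 (chr16:85799687-85799713, minus): tgtcccgcgaCCGGAAGagagcaaggc
ATP5I (chr4:674257-674283, plus): gacctccgcaCCGGAAGcacaacctgc
ATP5L (chr11:118401597-118401623, minus): atgtcacccgCCGGAAGgacccgctgc

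Where a promoter held more than 1 match, the one nearest to the start is shown. In the 10 members that rose the centre of the printed motif lay from 125 to 2 bases before the RefSeq start, as at SDHB (-125) and COX5B (-2). Of the 4 that fell, SDHAF2 had it before the start (-17), and COX4I1, ATP5I and ATP5L had it after the start, at 5, 6 and 4. The members that rose without a match were COX5A and ATP5F1. The median log2 change in depleted against full medium was 0.23 over the 15 tested members with the motif and -0.18 over the 20 without, against 0.12 and -0.04 over all tested genes with and without it. In depleted against repleted medium, which shares the depleted libraries, the motif occurred in 11 of 14 members that were higher, 3 of 14 that were lower and 1 of 7 others. Over all tested genes with a promoter these shares were 25% of those higher, 14.4% of those lower and 18.3% of the others. These counts describe letters in a window and were given no test, and base composition was not matched.

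The upstream 250 bases are printed for the largest falls and rises among matched members called in both depleted comparisons, with matches to the NRF1 element, the ETS core (CCGGAAG) and the YY1 element (AAGATGGC) in capitals on either strand.

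UQCR11 (chr19:1605463-1605712, minus): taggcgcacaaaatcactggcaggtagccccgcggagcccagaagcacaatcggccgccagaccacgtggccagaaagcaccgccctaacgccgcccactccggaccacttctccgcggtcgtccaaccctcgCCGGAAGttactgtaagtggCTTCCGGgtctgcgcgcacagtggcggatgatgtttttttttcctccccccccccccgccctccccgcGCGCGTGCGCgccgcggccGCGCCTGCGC
SDHB (chr1:17054033-17054282, minus): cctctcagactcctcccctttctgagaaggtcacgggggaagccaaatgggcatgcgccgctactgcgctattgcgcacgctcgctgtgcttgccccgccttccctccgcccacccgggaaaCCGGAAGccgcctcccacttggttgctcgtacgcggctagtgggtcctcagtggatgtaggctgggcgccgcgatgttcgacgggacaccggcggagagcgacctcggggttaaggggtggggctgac
COX7A2L (chr2:42361218-42361467, minus): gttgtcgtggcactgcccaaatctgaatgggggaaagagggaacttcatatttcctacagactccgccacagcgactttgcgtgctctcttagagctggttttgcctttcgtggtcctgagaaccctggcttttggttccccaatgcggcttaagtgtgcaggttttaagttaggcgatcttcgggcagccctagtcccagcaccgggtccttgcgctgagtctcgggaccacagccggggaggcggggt
UQCRC2 (chr16:21953111-21953360, plus): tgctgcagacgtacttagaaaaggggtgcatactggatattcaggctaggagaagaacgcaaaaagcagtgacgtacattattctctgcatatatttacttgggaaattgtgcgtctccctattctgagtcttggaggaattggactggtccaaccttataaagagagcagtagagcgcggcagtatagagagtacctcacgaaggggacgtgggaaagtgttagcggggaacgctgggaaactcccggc

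UQCR11 held 2 NRF1 and 2 ETS matches in this stretch and SDHB held 1 ETS match, while COX7A2L and UQCRC2, which fell, held none of the 3 motifs. The YY1 element occurred in 3 of 12 members that rose (25%), 0 of 15 that fell and 2 of 8 others. It occurred in 5.28% of all tested genes with a promoter, 6.79% of those that rose and 3.75% of those that fell. Among all promoters the share was 3.03%. The metal response element, searched as TGCACNC or TGCGCNC and chosen after the other motifs had been counted, occurred in 17 of 35 tested members (48.6%), against 39.4% of all 10894 tested genes with a promoter. It occurred in 5 of 12 members that rose, 7 of 15 that fell and 5 of 8 others.

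Before the members are described, the libraries were checked. Vimentin (VIM), a filament protein abundant in HEK293 cells, had 573 to 675 RPKM, and PAX8 was at most 0.29 RPKM. From full to depleted medium the means of the markers went from 577 to 665 RPKM for VIM, 135 to 90.4 for KRT8, 77.4 to 59.2 for KRT18, 31.8 to 6.53 for NEFL, 3.9 to 2.8 for NEFM and 3.29 to 0.6 for PAX2. Summed over 8 markers of muscle, the tissue of several cytochrome c oxidase isoforms, the level was 5.75 to 6.77 RPKM in depleted and 1.11 to 3.32 in the other libraries, led by CKM and with MYL2 at 0, and the sum over 4 blood genes was 3.8 to 5 against 0.89 to 1.93. The markers of endothelium, liver and testis summed to at most 0.61 RPKM in any library, and a part of any of these markers in the results was not tested. Depth, estimated from the spacing of low values, was between 17000000 and 23500000 reads a library.

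Of the 55 members 47 passed the filter of at least 1 RPKM in at least 3 libraries. The other 8 were the isoforms COX4I2, COX6A2 and COX7B2, listed at 0 in every library, COX6B2 (0.21 to 0.83 RPKM), COX7A1 (0 to 0.65), COX8C (0 to 0.19) and ATP5L2 (0 to 0.16), and a second row named SDHD, ENSG00000255292 (0 to 0.62), to which a later GENCODE annotation gives another name. Their common counterparts were far more abundant: COX4I1 had a mean of 335, COX6A1 of 354, COX6B1 of 196, COX7A2 of 302, COX7B of 181 and COX8A of 337 in full medium. The isoform genes are known for lung, muscle, heart or testis, and at these levels no difference between the media could be detected. SDHAF3 and SDHAF4, which the choice allows for, were not analysed here.

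Zinc depletion moved the members in both directions and mostly by little. In depleted against full medium 13 of the 47 tested members rose and 21 fell at an adjusted p below 0.05 in limma, a linear model over all 15774 tested genes. Over all tested genes 60.9% were called, 29.8% higher and 31.2% lower, against 72.3% of the tested members. Of the tested protein-coding genes, the class to which all members belong, 66.4% were called. A call by itself therefore does not set the members apart. The median change was -0.04 over the members and 0 over all genes, and the median absolute change was 0.25 against 0.36. Of the 34 called members 26 changed by less than 0.5 on the log2 scale, 3 fell by at least 1 and 0 rose by as much. The libraries of the groups did not overlap for 36 of 47 members, against 67.6% of all genes.

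**Figure D1:**
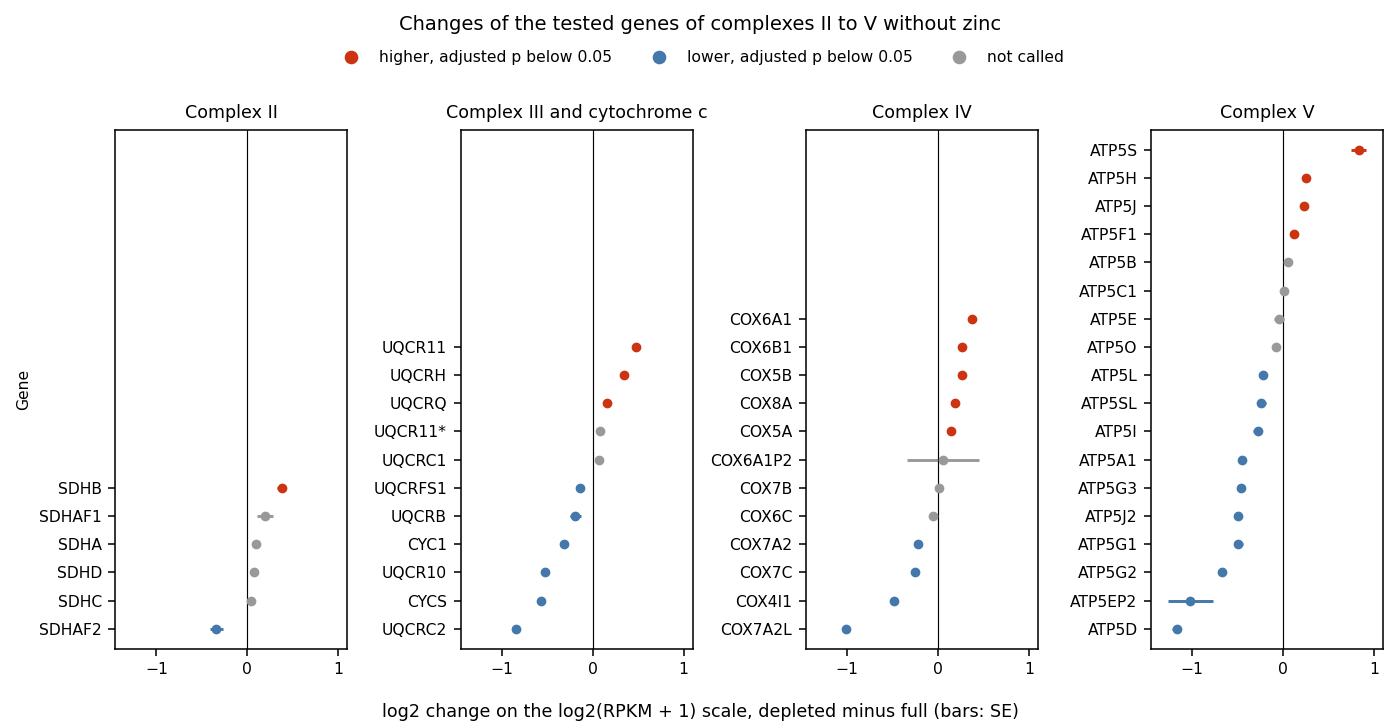
Change of each tested member in depleted against full medium on the log2(RPKM + 1) scale (horizontal axis, points, with SE as bars), by complex (panels) and gene (vertical axis); colour marks the limma call, and the asterisk marks the second row named UQCR11, ENSG00000267059. Each complex held members on both sides of 0, from -1.17 (ATP5D) to 0.83 (ATP5S).

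With Zn(II) given back, the levels lay near those in full medium. In repleted against full medium 0 of 47 members passed the limma test, with 3 at an unadjusted p below 0.05 (1224 of all 15774 genes) and a lowest adjusted p of 0.593, and 0.0317% of all genes were called. The changes ran from -0.26 to 0.19, with a median absolute value of 0.03 against 0.07 over all genes. Repleted and full libraries were fully apart for 4 tested members, SDHC, SDHD, COX5A and the second UQCR11 row, against 12.4% of all genes. In depleted against repleted medium 16 members were higher and 20 lower, 76.6% of those tested. Of all genes 60.7% were called, 29.5% higher and 31.2% lower, and of protein-coding genes 66.3%. The comparisons share the depleted libraries; 13 members were called higher and 20 lower in both, 0 in opposite directions, 4 in only 1 of them and 10 in neither. Depleted and repleted libraries did not overlap for 40 of 47 members, against 65.2% of all genes.

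Complex II, which oxidises succinate, had 2 calls among 6 tested members against full medium (33.3%, against 60.9% of all genes). SDHB, its iron-sulfur subunit, had 136, 130 and 132 RPKM in full, 159, 178 and 180 in depleted and 130, 120 and 128 in repleted medium. All depleted libraries lay above all others, and the rise was 0.38 (SE 0.05, limma adjusted p = 1.44e-04) against full and 0.45 against repleted medium (limma adjusted p = 4.41e-05). SDHA, the flavoprotein to which succinate binds, had means of 105 ± 4.4 in full and 111 ± 2.7 RPKM in depleted medium (SD, n = 3; log2 0.09, limma adjusted p = 0.073). The membrane anchors SDHC and SDHD had changes of 0.04 and 0.07 against full medium, and neither passed. SDHA passed as a rise without full replicate 2 (log2 0.12, limma adjusted p = 0.0311) and after median centring (0.13, adjusted p = 0.0146).

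Of the assembly factors, SDHAF2, which helps attach the flavin to SDHA, had 24.1, 28.7 and 28.3 RPKM in full and 22.6, 20.1 and 20.4 in depleted medium. It fell by 0.34 (SE 0.072, limma adjusted p = 0.00247) against full medium but was not called against repleted medium (log2 -0.16, limma adjusted p = 0.0785), where the repleted libraries had 23.3, 23.4 and 24.2 RPKM. That second comparison passed without full replicate 1 (0.0306) or depleted replicate 1 (0.044). SDHAF1, a factor for the iron-sulfur subunit, had 16.7 ± 2.15 RPKM in full and 19.1 ± 0.872 in depleted medium (log2 0.19, limma adjusted p = 0.079), and passed without full replicate 2 (0.28, adjusted p = 0.0128) or after median centring (0.24, adjusted p = 0.0331). Against repleted medium SDHAF1 was higher by 0.31, SDHC by 0.12 and SDHD by 0.15 (limma adjusted p of 0.0114, 0.0202 and 0.0109). The call of SDHC ended without depleted replicate 2 (0.071), depleted replicate 3 (0.0767), repleted replicate 1 (0.0566) or repleted replicate 3 (0.0567), and without the filter those of SDHC (0.0751) and SDHAF1 (0.0695) both ended. In repleted against full medium the changes of the 6 tested members ran from -0.18 to 0, with a median of -0.08, and 0 passed. In all, complex II had 1 member higher and 1 lower of 6 tested against full medium, and 4 higher and 0 lower against repleted medium. Those 4 are 66.7% of the members tested, where 60.7% of all genes and 66.3% of protein-coding genes were called.

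Complex III, which moves electrons from ubiquinol to cytochrome c, held its nuclear redox subunits CYC1 and UQCRFS1 and cytochrome c among its falls. UQCRC2, a core protein, had 118, 110 and 107 RPKM in full, 63.2, 61.6 and 61.7 in depleted and 111, 107 and 116 in repleted medium. The depleted libraries stood far below the rest, a mean 1.8-fold lower than in full medium (log2 -0.84, SE 0.045, limma adjusted p = 3.22e-07). UQCRC1, the partner core protein, had 167 ± 9.34 RPKM in full and 176 ± 5.17 in depleted medium (log2 0.07, limma adjusted p = 0.166) and so did not pass, although quantile normalization brought it past the threshold (0.11, adjusted p = 0.0345).

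CYCS, cytochrome c itself, which carries electrons and also triggers apoptosis when released, had 243, 230 and 229 RPKM in full, 159, 156 and 157 in depleted and 233, 221 and 239 in repleted medium. It fell by 0.57 against full medium (SE 0.036, limma adjusted p = 9.11e-07), and the depleted libraries overlapped none of the others. CYC1, the cytochrome c1 subunit, fell from 129 ± 6.44 to 104 ± 1.53 RPKM (log2 -0.31, limma adjusted p = 2.29e-04). The Rieske iron-sulfur protein UQCRFS1 fell from 79.9 ± 3.04 to 72.6 ± 2.17 RPKM (log2 -0.14, limma adjusted p = 0.0153). That last call ended without full replicate 1 (0.0552), full replicate 3 (0.0528) or depleted replicate 2 (0.0563) and after median centring (0.108) or without the filter (0.0504). A pseudogene row, UQCRFS1P1, reached 29.6% of the mean RPKM of UQCRFS1, so their reads may not be fully separated.

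The small subunits of complex III split. UQCR11, the smallest, had 142, 142 and 132 RPKM in full, 193, 195 and 191 in depleted and 143, 135 and 143 in repleted medium, a rise of 0.48 (SE 0.037, limma adjusted p = 3.49e-06). The hinge protein UQCRH, which binds cytochrome c1, had 401, 379 and 366 RPKM in full, 468, 494 and 494 in depleted and 401, 387 and 414 in repleted medium, a rise of 0.35. UQCRQ, which neighbours cytochrome b, had 301, 295 and 287 RPKM in full, 329, 344 and 318 in depleted and 317, 283 and 294 in repleted medium. Its rise of 0.16 (limma adjusted p = 0.0109) was the smallest of the 3, and without the filter it did not pass (0.0763). Against repleted medium (0.15, limma adjusted p = 0.0178) its call ended without depleted replicate 2 (0.068), repleted replicate 2 (0.0645) or repleted replicate 3 (0.0515). Each of the 3 was above full and repleted medium in every depleted library.

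UQCR10 went the other way, with 177, 180 and 188 RPKM in full, 130, 122 and 125 in depleted and 188, 170 and 171 in repleted medium (log2 -0.52, SE 0.044, limma adjusted p = 6.53e-06). UQCRB, the ubiquinone-binding subunit, fell from 142 ± 11.7 to 124 ± 2.8 RPKM (log2 -0.19, limma adjusted p = 0.0183), a call that ended without depleted replicate 1 (0.0557), after median centring (0.0763) and without the filter (0.117). A second row under the name UQCR11, ENSG00000267059, had 43.1 ± 1.07 RPKM in full and 45.6 ± 0.416 in depleted medium and did not pass (log2 0.08, limma adjusted p = 0.0706), though it did after median centring (0.0142) or without the filter (0.029). A later GENCODE annotation gives this identifier another name and places it over the UQCR11 locus, so it may be no complex III gene, and the reads of these rows may not be fully separated. Complex III with cytochrome c came to 3 rises and 6 falls of 11 tested (81.8% called, against 60.9% of all genes).

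**Figure D2:**
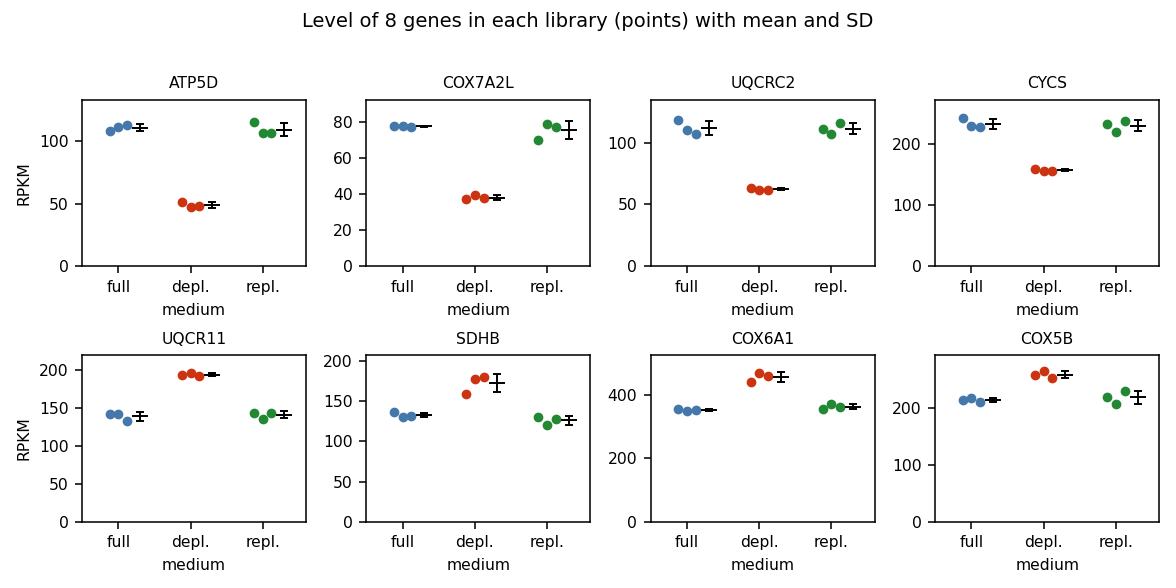
RPKM (vertical axis, from 0) of 8 members in each library (points) of full, depleted (depl.) and repleted (repl.) medium (horizontal axis), with the mean and SD of 3 libraries beside them. ATP5D, COX7A2L, UQCRC2 and CYCS lay lower in all 3 depleted libraries than in the other 6, and UQCR11, SDHB, COX6A1 and COX5B lay higher.

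Complex IV, cytochrome c oxidase, had 5 rises and 4 falls of 12 tested (75% called, against 60.9% of all genes). COX5B, the zinc-binding subunit, rose: it had 214, 218 and 211 RPKM in full, 258, 264 and 252 in depleted and 219, 207 and 229 in repleted medium. Every depleted library was above every other, by 0.27 against full (SE 0.038, limma adjusted p = 2.08e-04) and 0.24 against repleted medium (limma adjusted p = 3.75e-04). COX6A1 had 357, 351 and 353 RPKM in full, 440, 470 and 461 in depleted and 355, 371 and 362 in repleted medium, the largest rise of the complex (log2 0.37, SE 0.03, limma adjusted p = 5.18e-06). COX6B1, which faces the intermembrane space, had 202, 195 and 192 RPKM in full, 239, 238 and 235 in depleted and 194, 206 and 201 in repleted medium (log2 0.27). COX8A and COX5A rose by 0.19 and 0.14 (limma adjusted p of 0.0012 and 0.0027).

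COX7A2L, which joins complexes III and IV in supercomplexes, fell furthest in complex IV. It had 77.7, 77.8 and 77 RPKM in full, 37.1, 39.4 and 37.7 in depleted and 70.1, 79.1 and 77.4 in repleted medium, 2.04-fold lower in depleted than in full medium (log2 -1.01, SE 0.048, limma adjusted p = 1.62e-07). COX4I1, the common form of the largest nuclear subunit, had 327, 344 and 333 RPKM in full, 241, 235 and 243 in depleted and 329, 331 and 325 in repleted medium (log2 -0.48, SE 0.027, limma adjusted p = 4.45e-07). COX7C, which had the highest level of all members, had 1140, 1100 and 1040 RPKM in full, 890, 985 and 894 in depleted and 1130, 1110 and 1120 in repleted medium (log2 -0.25). COX7A2, the common form of subunit VIIa, fell by 0.22, from 302 ± 4.16 to 258 ± 4.12 RPKM. The depleted libraries lay below all others for each of these 4 genes.

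COX6C and COX7B did not pass. COX6C had 122, 114 and 113 RPKM in full and 115, 114 and 108 in depleted medium, and COX7B had means of 181 ± 6.18 and 182 ± 3.73. COX6A1P2, named as a pseudogene of COX6A1 but classed as protein-coding in the table, ranged from 0.7 to 3.7 RPKM over the libraries and was not called (limma adjusted p = 0.898). Against repleted medium the complex had the same counts, 5 higher and 4 lower (75% called, against 60.7% of all genes).

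Complex V, the ATP synthase, had 4 rises and 10 falls of 18 tested (77.8% called, against 60.9% of all genes). These 18 were grouped by their ATP5 names and include ATP5S, ATP5SL and ATP5EP2, which are no classical subunits. Among the others the called falls lay in F1 and the membrane part, and the called rises in the peripheral stalk. C14orf2 and USMG5, membrane subunits outside these names, rose against full medium, and the grouping by part was given no test. In F1, the catalytic head and central stalk, ATP5D, the delta subunit of the stalk, had 108, 111 and 113 RPKM in full, 51.6, 47.1 and 48.2 in depleted and 115, 106 and 106 in repleted medium. Its fall was the largest of the members on the log2(RPKM + 1) scale (log2 -1.17, SE 0.046, limma adjusted p = 5.33e-08) and 2.27-fold in mean RPKM, where the much rarer ATP5EP2 fell 2.65-fold. The alpha subunit ATP5A1 fell from 212 ± 1.72 to 155 ± 2.59 RPKM (log2 -0.45, limma adjusted p = 4.89e-07). The catalytic beta subunit ATP5B had 573 ± 4.47 in full and 593 ± 10.3 RPKM in depleted medium (log2 0.05, limma adjusted p = 0.226), and ATP5C1 (log2 0.01) and ATP5E (-0.04) did not pass either. Alpha and beta form the same ring in equal number, and their transcripts stood at 212 and 573 RPKM in full medium.

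The 6 tested members of the membrane part, the c-ring genes and subunits e, f and g, all fell. Of all genes 31.2% were called lower against full medium. The c-ring is built from a single mature protein that 3 genes encode, each with its own import sequence. ATP5G2 had 366, 356 and 366 RPKM in full, 229, 237 and 217 in depleted and 364, 369 and 363 in repleted medium (log2 -0.67, SE 0.033, limma adjusted p = 2.07e-07). ATP5G1 fell from 269 ± 10.3 to 192 ± 10.8 RPKM and ATP5G3 from 314 ± 6.26 to 228 ± 5.87, by 0.49 and 0.46 on the log2 scale. The small membrane subunits ATP5J2 (subunit f), ATP5I (e) and ATP5L (g) fell by 0.49, 0.28 and 0.22, and ATP5J2 went from 467 ± 24.4 to 332 ± 4.88 RPKM. A readthrough row that joins ATP5J2 to PTCD1 had 5.39 RPKM in full and 3.4 in depleted medium. C14orf2 and USMG5, further small membrane subunits that lie outside the ATP5 names, rose by 0.22 and 0.14 (limma adjusted p of 0.00333 and 0.0315), and USMG5 was not called against repleted medium (0.03, adjusted p = 0.675).

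Of 4 genes of the peripheral stalk, which holds the head still, 3 rose slightly and ATP5O did not pass. Over all genes 29.8% were called higher against full medium. ATP5H (subunit d) had 180, 185 and 178 RPKM in full, 213, 221 and 212 in depleted and 177, 181 and 185 in repleted medium (log2 0.25, SE 0.03, limma adjusted p = 6.89e-05). ATP5J (F6) had 190, 197 and 191 RPKM in full, 222, 228 and 228 in depleted and 199, 192 and 205 in repleted medium (log2 0.23). For both genes all depleted libraries were above all others. ATP5F1 (subunit b) rose from 310 ± 7.43 to 336 ± 7.08 RPKM (log2 0.12, limma adjusted p = 0.0139), a call lost without the filter (0.0661) and without the variance trend (0.0658). ATP5O, the subunit that ties the stalk to the head, had 219 ± 11.7 in full and 207 ± 5.49 RPKM in depleted medium (log2 -0.08, limma adjusted p = 0.132). It passed as a fall without full replicate 3 (log2 -0.12, adjusted p = 0.0184).

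**Figure D3:**
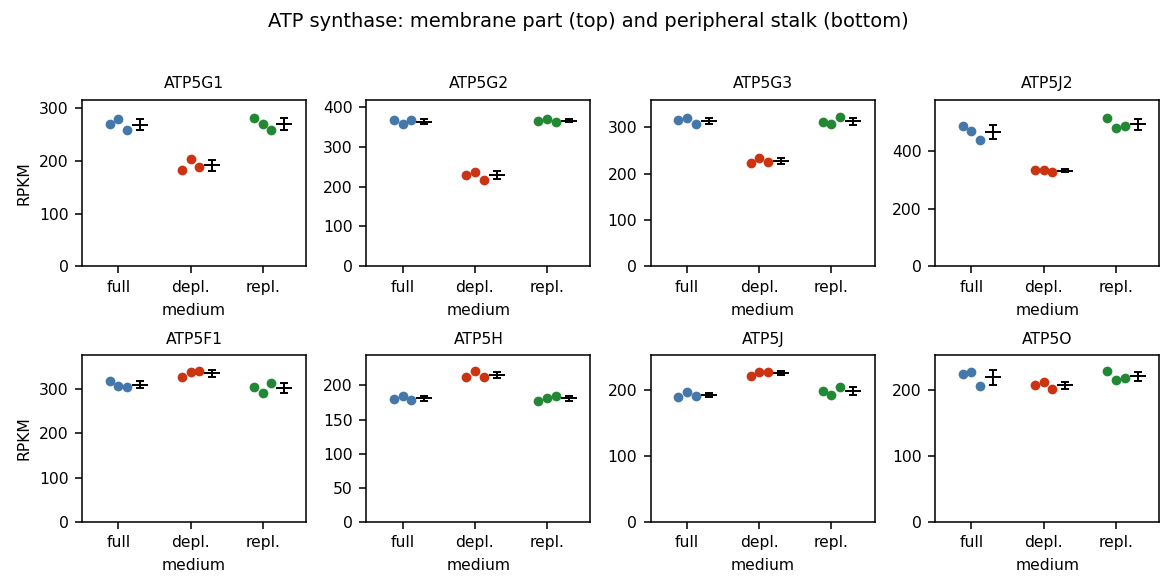
RPKM (vertical axis, from 0) of 4 genes of the membrane part and 4 of the peripheral stalk of ATP synthase in each library (points) by medium (horizontal axis; depl., depleted, repl., repleted), with mean and SD of 3 libraries. The c-ring genes and ATP5J2 lay lower in every depleted library, and ATP5F1, ATP5H and ATP5J lay higher.

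Of the genes that carry the ATP5 name without being classical subunits, ATP5S, coupling factor B, had 13.8, 14.6 and 13.2 RPKM in full, 24.5, 29 and 23.3 in depleted and 15.4, 15.4 and 13.9 in repleted medium. This was the largest rise of all members (log2 0.83, SE 0.084, limma adjusted p = 2.15e-05). ATP5SL fell by 0.24, from 39 ± 1.57 to 32.9 ± 1.83 RPKM. Its RefSeq symbol is DMAC2, and it is placed in complex V here by its older name alone. ATP5EP2, named as a pseudogene of ATP5E but classed as protein-coding, had 6.85, 3.47 and 3.87 RPKM in full, 2.44, 1.65 and 1.27 in depleted and 4.42, 2.62 and 4.07 in repleted medium (log2 -1.02, SE 0.247, limma adjusted p = 0.00557). Its fall against full medium did not pass without the filter (0.0555). Against repleted medium (-0.76, limma adjusted p = 0.024) the call ended without depleted replicate 2 (0.0622), depleted replicate 3 (0.0835), repleted replicate 1 (0.0807) or repleted replicate 3 (0.0693).

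Sums over a complex add abundant and rare members. The tested members of complex V summed to 4170 ± 80 RPKM in full, 3631 ± 71 in depleted and 4193 ± 94.4 in repleted medium, and the highest depleted library (3713) was below the lowest full library (4082). Complex II went the other way, with 524.7 ± 5.53 RPKM in full, 575.9 ± 19.6 in depleted and between 498.2 and 502.9 in repleted medium. The sums of complex III (1903 ± 43.9 in full, 1876 ± 18.5 in depleted) and complex IV (3567 ± 53.2 and 3487 ± 75.1) overlapped between these groups. A few abundant genes dominate such sums, and they were given no test.

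**Figure D4:**
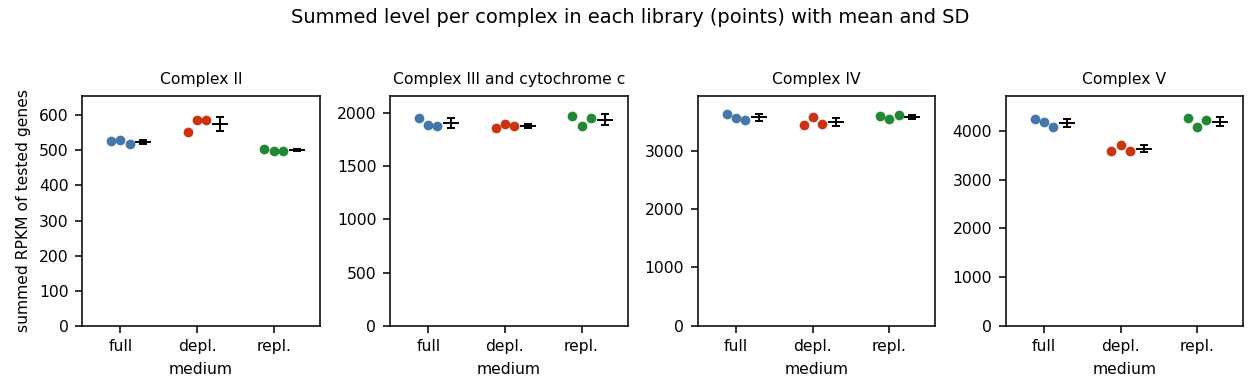
RPKM summed over the tested members of each complex (vertical axis, from 0) in each library (points) by medium (horizontal axis; depl., depleted, repl., repleted), with mean and SD of 3 libraries. Complex V lay lower in depleted medium (3584 to 3713) than in full (4082 to 4238), and complexes III and IV overlapped.

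The assembly genes of these complexes, from lists drawn up with earlier results known, included falls larger than those of the subunits for complexes III and IV, but not for complex V (lowest log2 change -1.07 against -1.17). These are extremes of lists and were given no test. Of 7 tested assembly factors of complex III 2 rose and 2 fell (57.1% called, against 60.9% of all genes), with a range from -2.92 to 0.59. C11orf83, also called UQCC3, fell from 16.7 ± 1.41 to 1.37 ± 0.395 RPKM (log2 -2.92, limma adjusted p = 6.26e-08), and BCS1L, which inserts the Rieske protein, from 40.7 ± 1 to 16.5 ± 1.64. LYRM7, which chaperones the Rieske protein, rose from 18.6 ± 0.684 to 28.4 ± 0.86 RPKM and UQCC2 from 108 ± 5.15 to 120 ± 2.65. Repleted medium had 125 ± 5.38 RPKM of UQCC2, and the gene was not called against it (log2 -0.05, limma adjusted p = 0.328). The call of UQCC2 against full medium ended without the filter (limma adjusted p = 0.0688). TTC19 did not pass against full medium (log2 -0.06) but was lower than in repleted medium (log2 -0.18, limma adjusted p = 0.00901).

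Of 30 tested genes listed for complex IV assembly 7 rose and 12 fell, from -2.37 to 0.74. The list is broad, and NDUFA4, counted among its falls (log2 -0.22), is a subunit and no assembly factor. The share called was 63.3%, against 60.9% of all genes and 66.4% of protein-coding genes. TACO1, the translational activator of the mitochondrial MT-CO1 message, fell from 41.6 ± 1.4 to 7.24 ± 0.11 RPKM (log2 -2.37, limma adjusted p = 6.3e-09). COA1 fell from 72 ± 4.69 to 13.2 ± 0.713, COA3, which acts on newly made MT-CO1, from 125 ± 5.35 to 43.9 ± 1.57, and COX16 from 51.1 ± 1.99 to 21 ± 0.173. COA6, which helps deliver copper, rose from 90.6 ± 2.66 to 151 ± 6.85 RPKM. Each of these 5 genes was called the same way against repleted medium, with log2 changes of -2.34, -2.41, -1.43, -1.34 and 0.81.

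Of 8 tested genes of complex V assembly and small accessory subunits 4 rose and 3 fell (87.5% called, against 60.9% of all genes). Against repleted medium 62.5% of them were called, against 60.7% of all genes and 66.3% of protein-coding genes. ATPAF1, the chaperone of the beta subunit, fell from 126 ± 4.41 to 59.3 ± 1.56 RPKM (log2 -1.07, limma adjusted p = 4.21e-08). TMEM70, a membrane assembly factor, rose from 28.4 ± 0.576 to 46.5 ± 1.83 and the accessory subunit gene C14orf2 from 143 ± 6.01 to 166 ± 6.2. OXA1L, the membrane insertase, fell by 0.29 and the inhibitor ATPIF1 by 0.09. The call of ATPIF1 ended without full replicate 2 (0.0518), after median centring (0.242) and without the variance trend (0.101).

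**Figure D5:**
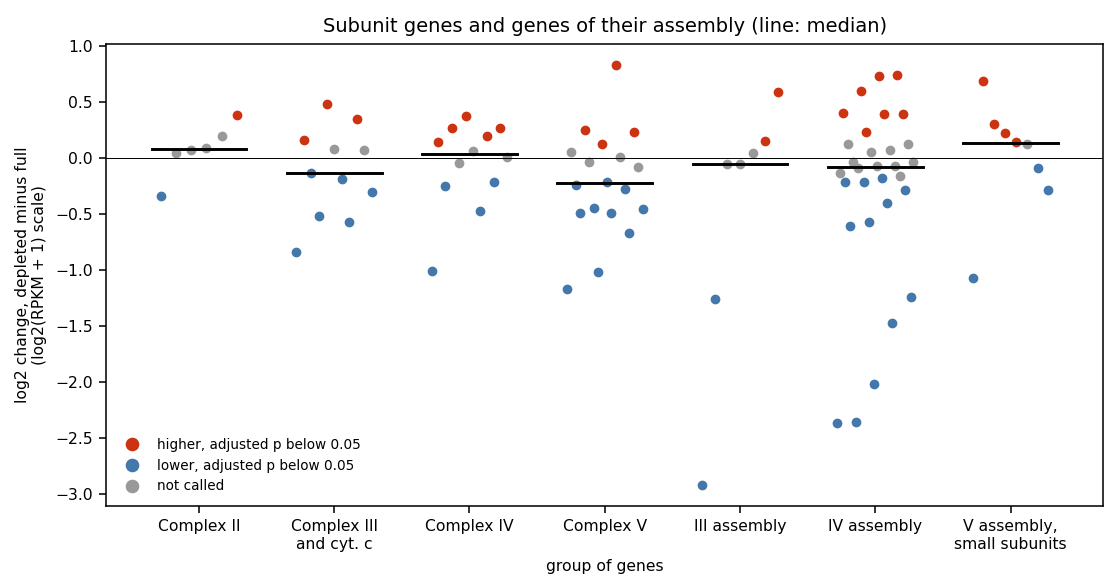
Change in depleted against full medium on the log2(RPKM + 1) scale (vertical axis) of each tested gene (points) of complexes II to V and of their assembly lists (horizontal axis), with the median of each as a line and the limma call as colour. The medians lie between -0.23 and 0.13, and the lowest points are C11orf83 (-2.92), TACO1 (-2.37) and COA1 (-2.36) among assembly genes and ATP5D (-1.17) among members.

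The mitochondrially encoded partners were also mixed, with 2 rises, 2 falls and 2 that did not pass. The share called was 66.7%, against 60.9% of all genes and 66.4% of protein-coding genes. MT-CO1, the catalytic subunit of complex IV, rose from 1930 ± 161 to 3450 ± 77.7 RPKM (log2 0.84, limma adjusted p = 1.63e-06). MT-ATP6 and MT-ATP8, the complex V subunits of mitochondrial origin, each fell by 0.25, and MT-CO2 (log2 0.02) and MT-CO3 (-0.08) did not pass. MT-CO3 passed as a fall without depleted replicate 1 (-0.12, limma adjusted p = 0.0463). The rise of MT-CYB (0.24, limma adjusted p = 0.0191) ended without full replicate 1 (0.0658), without depleted replicate 1 (0.0632), without the filter (0.151) and after quantile normalization (0.107).

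Among 14 tested regulators of respiratory genes 4 rose and 5 fell (64.3% called, against 60.9% of all genes and 66.4% of protein-coding genes). GABPA, the DNA-binding subunit of the factor GABP that recognises the ETS core, rose from 18.8 ± 0.376 to 26.7 ± 0.43 RPKM (log2 0.48, limma adjusted p = 1.1e-05), while GABPB1, which codes for its partner subunit, fell from 10.8 ± 0.303 to 6.23 ± 0.9 (log2 -0.72, limma adjusted p = 1.08e-04). SP1, a zinc finger activator, rose from 19.9 ± 1.83 to 47.6 ± 0.937 RPKM (log2 1.22). The coactivator genes PPRC1 and PPARGC1B fell from 24.5 ± 0.361 to 11.5 ± 0.483 and from 3.47 ± 0.295 to 1.59 ± 0.108 RPKM. All 5 were called the same way against repleted medium. Of the factors named for the other motifs, YY1 rose by 0.33 (limma adjusted p = 1.8e-04) and NRF1 did not pass (log2 -0.24, limma adjusted p = 0.0645). A part of any of these factors in the changes of the members was not tested.

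How reads were divided between near-identical copies was not tested. The table held 137 other rows named as pseudogenes of 28 members, 88 of them at 0 in every library and 3 with a mean of at least 1 RPKM. These were UQCRFS1P1 (22.9 RPKM), SDHAP1 (9.21) and SDHAP3 (13.5), the last at 12.6% of the mean of SDHA. Whether strand was used in counting is not given in the sources used here.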

How the data were processed

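The members and gene lists were chosen with earlier results of these data known. The authors deposited each gene as log2 of RPKM plus 1, per the file headers, on Ensembl gene identifiers. The submitters' processing notes name bedtools 2.25.0.3, BWA 0.7.12-r1039, RSEM 1.2.6 and Bowtie 1.0.1, and as builds GRCh37 and hg19. Which step each served is not given in the sources used here. Further scaling between libraries is not given in the sources used here. The table held 57766 genes and 20320 blank rows, with 9 columns of values, 1 per library, and 0 of unknown sample. After the log was undone, 100% of values were multiples of 0.01 RPKM (tolerance 2e-04).

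No read counts were used. Depth was estimated from the spacing of low values in genes of 100 to 500 nucleotides effective length; between 57.3% and 64.3% of these were whole reads within 0.1 read, so no counts were recovered and no interval rests on them.

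The 15774 genes that reached 1 RPKM in 3 or more libraries were tested with limma 3.58.1 in R 4.3.3 on the deposited log2 values, with a variance trend, 1 mean per group over all 9 libraries and Benjamini-Hochberg adjustment over all genes (threshold 0.05). The model was tested on simulated data. Errors of means are SD with n = 3. All tested members are named, and the tissue isoforms are given with their counterparts. Values in each library are printed for up to 3 rises and 3 falls per complex called in both depleted comparisons. They are also printed for COX5B, SDHAF2 and COX6C. Of each list up to 5 genes are named by smallest p. MT-CO2, USMG5 and the factors YY1 and NRF1 are named for completeness. Promoters are RefSeq's on GRCh38.p14, a later build than that of the values; no other coordinates are given. Python 3.11.15 and matplotlib 3.10.9 drew the figures. Alternatives were a pseudocount of 0.1, no filter, a mean of at least 1 RPKM, 6 libraries alone, a replicate block, median centring, quantile normalization, protein-coding genes alone, a threshold of 0.01, no variance trend, and each library left out.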

Additional observations from a re-analysis of the deposited data

How the results depend on the processing

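Against full medium 13 members were higher and 21 lower; over the alternatives these counts ran from 11 to 16 and from 18 to 21, and leaving out a library gave 13 to 15 and 20 to 21. Against repleted medium (16 and 20) they ran from 12 to 19 and from 17 to 21, and leaving out a library gave 14 to 17 and 19 to 21. The counts over all genes moved too. For depleted against full medium the main fit had 4693 higher and 4918 lower of 15774. Median centring gave 5186 and 4498, with a median log2 change over all genes of 0.047, against 0.001. A threshold of 0.01 gave 3631 and 3973, and no filter 4126 and 4376 of 57766. Against repleted medium median centring gave 5160 and 4398, where the main fit had 4654 and 4920. In repleted against full medium every alternative gave 0 and 0 members. With the replicate number as a block the counts were 14 and 21 against full and 16 and 20 against repleted medium, and SDHAF1 passed against full medium (0.19, limma adjusted p = 0.0293). Residuals correlated between -0.014 and 0.073 for equal numbers and between -0.061 and 0.042 for others, so the numbers were not taken as pairs. The direction turned only for genes that were called in neither setting. Against full medium these were ATP5B after quantile normalization (-0.03), ATP5E after median centring (0.01), COX7B without full replicate 2 (-0.01), ATP5C1 without full replicate 2 or 3 (-0.01 each) and COX6A1P2 without full replicate 2 (-0.2), depleted replicate 2 (-0.12) or replicate 3 of depleted medium (-0.18), within a range up to 0.49. Against repleted medium they were ATP5E after median centring (0.02) or without depleted replicate 1 (0.01, within a range down to -0.08), COX6A1P2 after quantile normalization (0.01), without depleted replicate 1 (0.3) or repleted replicate 1 (0.11; lowest value on leaving out a library -0.37), and the second UQCR11 row after median centring (0.04). The cause was not tested. Among genes at 0 in a group no change can be read, and the depth behind low values is an estimate.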

Other observations

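The NRF1 element, known from promoters of respiratory genes, was searched on both strands. Over all tested genes with a promoter it occurred in 17% of those that rose in depleted against full medium, 6.19% of those that fell and 12.8% of the others. Among the members it occurred in 1 of 12 that rose (UQCR11), 3 of 15 that fell (UQCRFS1, UQCR10 and ATP5I) and 5 of 8 that did not pass (SDHA, SDHD, UQCRC1, ATP5C1 and ATP5O). The median log2 change was 0.01 over the 9 tested members with it and -0.01 over the 26 without, against 0.17 and -0.04 over all tested genes. These are counts of letters in a window of 300 bases, with no test.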
